A study of Rattus norvegicus with 9 samples.

Results

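Messenger RNA levels of 40 cell cycle and DNA replication genes were measured in 9 cartilage libraries of the rat knee. The members were chosen by gene symbol, and all 40 were found among the 32043 genes of the expression table. They fell into 9 replication genes (Mcm2, Mcm3, Mcm4, Mcm5, Mcm6, Mcm7, Pcna, Rrm1, and Rrm2), 24 mitosis genes, and 7 further genes (Tyms, Cdc6, Cdt1, Gins2, Ccne1, Ccne2, and E2f1). These 7 act before or during S phase. They were kept apart from both sets and are called intermediate here.

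The libraries came from 3 groups of male SD rats, with 3 libraries per group. The model group (knee osteoarthritis, KOA) had modified Hulth surgery, in which the medial collateral and anterior cruciate ligaments and the medial meniscus of the left knee were removed and the animals were then made to move. The control group had the joint capsule opened and sutured without this excision. The SYD group had the model surgery and was then given an extract of Shengyu decoction, a prescription of botanical drugs, by gavage for 4 weeks; the study names its highest dose for this group, and the labels give no dose. The columns of this group are named CXTB in the table, and the sample titles and descriptions assign them to SYD. The study also had a group that it names CXB, given a drug by injection into the joint. The sample titles name no such group, and the meaning of CXTB is not given. All rats were 8 weeks old at purchase, and tissue was taken 8 weeks after surgery. The labels name cartilage as the tissue, although their extraction text speaks of retinas, and nothing says whether each library came from a separate animal. P-values therefore measure the spread between these libraries, which may be technical.

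A cell that prepares to divide first loads the Mcm helicase onto its replication origins, with Cdc6 and Cdt1 as loading factors. In S phase, Gins2 helps to activate this helicase, Pcna clamps the polymerases to DNA, and ribonucleotide reductase (Rrm1 and Rrm2) and thymidylate synthase (Tyms) supply nucleotides. Mitosis is then driven by Cdk1 with its cyclins, guarded by the spindle checkpoint kinases Bub1 and Ttk, and ended when Cdc20 and Ube2c direct cyclins and securin to destruction. Articular chondrocytes of grown animals divide rarely, whereas blood cell precursors in the marrow divide often.

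Promoters of 4 replication and 4 mitosis genes are shown as examples that hold the motifs marked in each set. RefSeq windows of the rat assembly GRCr8, from 250 bases before the transcription start to 50 bases after it, were at hand for 30 of the 40 members. Each sequence below is the 250 bases before the start, read along the gene. In the replication genes, capitals mark the E2F site, searched as TTTCCCGC, TTTGGCGC, TTTCGCGC, or TTTGCCGC on both strands.
Mcm2, chr4:122918095-122918344, minus strand: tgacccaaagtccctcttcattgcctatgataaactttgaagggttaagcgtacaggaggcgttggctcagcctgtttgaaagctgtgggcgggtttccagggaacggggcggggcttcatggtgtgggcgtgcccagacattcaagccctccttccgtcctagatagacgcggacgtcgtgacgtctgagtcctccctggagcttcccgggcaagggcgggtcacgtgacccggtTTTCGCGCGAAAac
Mcm5, chr19:13488563-13488812, plus strand: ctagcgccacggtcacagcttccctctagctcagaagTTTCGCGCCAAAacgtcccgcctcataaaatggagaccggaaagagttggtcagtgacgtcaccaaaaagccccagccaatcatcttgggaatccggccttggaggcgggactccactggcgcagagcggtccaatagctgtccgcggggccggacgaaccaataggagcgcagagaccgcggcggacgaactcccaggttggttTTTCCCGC
Mcm6, chr13:42404353-42404602, minus strand: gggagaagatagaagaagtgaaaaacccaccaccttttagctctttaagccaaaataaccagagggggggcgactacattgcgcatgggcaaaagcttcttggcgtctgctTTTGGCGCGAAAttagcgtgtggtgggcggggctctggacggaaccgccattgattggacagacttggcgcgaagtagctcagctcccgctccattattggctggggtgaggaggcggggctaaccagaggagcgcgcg
Mcm7, chr12:22163179-22163428, minus strand: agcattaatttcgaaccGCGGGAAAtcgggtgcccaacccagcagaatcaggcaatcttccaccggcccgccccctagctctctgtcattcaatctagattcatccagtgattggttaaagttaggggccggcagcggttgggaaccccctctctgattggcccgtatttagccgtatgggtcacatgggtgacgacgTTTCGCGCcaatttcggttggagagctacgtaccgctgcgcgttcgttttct
In the mitosis genes, capitals mark the CHR element (cell cycle genes homology region), searched as TTTGAA or TTCGAA, and the CCAAT box, searched as CCAAT, on both strands. These motifs are not marked in the replication genes above, each of which holds at least 1 of them too.
Ccnb2, chr8:79981659-79981908, minus strand: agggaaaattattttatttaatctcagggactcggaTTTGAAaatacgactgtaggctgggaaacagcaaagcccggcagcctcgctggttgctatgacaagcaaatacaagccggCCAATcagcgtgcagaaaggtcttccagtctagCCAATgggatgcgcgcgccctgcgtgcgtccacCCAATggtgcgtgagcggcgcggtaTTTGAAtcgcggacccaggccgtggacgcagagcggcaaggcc
Cdc20, chr5:137255800-137256049, minus strand: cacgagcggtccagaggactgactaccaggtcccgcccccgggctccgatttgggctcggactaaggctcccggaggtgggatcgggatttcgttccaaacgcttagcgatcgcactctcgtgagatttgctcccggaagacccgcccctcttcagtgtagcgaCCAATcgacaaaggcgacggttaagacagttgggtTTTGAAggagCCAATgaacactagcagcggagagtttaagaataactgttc
Mki67, chr1:199952594-199952843, minus strand: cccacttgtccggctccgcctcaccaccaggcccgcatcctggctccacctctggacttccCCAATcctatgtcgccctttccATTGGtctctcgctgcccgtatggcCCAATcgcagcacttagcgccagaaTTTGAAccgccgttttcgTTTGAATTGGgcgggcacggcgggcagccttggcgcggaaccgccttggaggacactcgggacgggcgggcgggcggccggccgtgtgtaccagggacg
Top2a, chr10:84473094-84473343, minus strand: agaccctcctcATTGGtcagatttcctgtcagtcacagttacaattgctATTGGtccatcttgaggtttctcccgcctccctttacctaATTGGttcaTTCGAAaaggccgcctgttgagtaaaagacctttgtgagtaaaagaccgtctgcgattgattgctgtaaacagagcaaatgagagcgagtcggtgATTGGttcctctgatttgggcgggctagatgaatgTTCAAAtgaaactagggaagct
Over the whole windows, an E2F site stood in 5 of 7 replication promoters (71.4%) and in 1 of 19 mitosis promoters (5.26%, Cdk1), against 2.25% of all 27457 rat promoters of this length. Conversely, a CHR element stood in 12 of 19 mitosis promoters (63.2%) and in 3 of 7 replication promoters (42.9%), against 19.5% of all promoters. The CCAAT box was frequent in both sets, in 15 of 19 and 6 of 7 promoters, against 37.7% of all. A CHR element and a CCAAT box stood together in 11 of 19 mitosis promoters (57.9%) and in 2 of 7 replication promoters, against 7.83% of all. Of the 4 intermediate promoters at hand, 2 held an E2F site (Tyms and Cdt1) and 0 held a CHR element. Among the 9698 promoters of genes tested, a closer background, an E2F site stood in 4.04%, a CHR element in 13.6%, a CCAAT box in 37.7%, and the last 2 together in 5.61%. The motifs of 1 kind can overlap motifs of another, as in Mki67, and a match is a description of the letters only. In the sequences shown, both CHR elements of Mki67 begin at -117 and -99 relative to the start, that of Cdc20 begins at -51, and the E2F sites of Mcm7 begin at -233 and -52.

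Levels are given as FPKM, a fragment count divided by gene length and by the library size that the authors used. The recovered depth was 14914121 to 19510537 reads per library. Mitochondrial genes took 4.05% to 4.86% of the reads in control, 39.5% to 90.7% in model, and 23.7% to 72.7% in SYD. Reads on other genes consequently numbered 1744769 in model library 1 and 3611325 in model library 3, against 11106680 in model library 2 and at least 5153851 elsewhere. The 40 members together had 68825, 137321, and 102991 reads in control, 4583, 11669, and 4494 in model, and 7018, 15487, and 7086 in SYD. Model libraries 1 and 3 therefore measured these genes least precisely. The part of the mitochondrial share in the results below was not tested. On values rescaled to those outside the mitochondrial genes, 36 members and 1852 of all 13898 genes tested were called lower in model against control, and 39 members and 1341 genes in SYD against control. In cartilage, the defining collagen Col2a1 was present in every library, at 348 to 8323 FPKM in control, 38.98 to 606 FPKM in model, and 42.4 to 609 FPKM in SYD, while 1 of 12 chondrocyte markers, Matn1, was listed at 0 in all 6 operated libraries.

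In the control tissue, 32 of the 40 members had a mean of at least 10 FPKM, against 6 in the model group and 1, Pcna, in the SYD group. Pcna was the highest member, with 63.4, 112, and 76.7 FPKM in the control libraries. Mki67, the proliferation marker of the chromosome surface, followed among the mitosis genes with 37.4, 61.7, and 44.8 FPKM, and Top2a, which untangles sister chromosomes, had 33.0, 45.6, and 35.9 FPKM. Foxm1, a transcription factor of mitosis genes, was the lowest member. It had 0.0393, 0.243, and 0.0778 FPKM in control and 0 in the other 6 libraries, and it was the only member that did not reach the mean of 0.5 FPKM required for testing. In model library 1 the control mean would give 2 reads, under the 3 reads that a count of 0 allows, so a level as low as that of the controls was not detectable there. The other 39 members were tested, and 38 of the 40 would have reached 0.5 FPKM on the model and SYD libraries alone.

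The control libraries were uniform in pattern but not in level. For all 40 members, control library 2 was the highest control. Over the 39 tested members, the median log2 ratio of control library 2 to the mean of the other controls was 0.61, against 0.00 over all 13898 genes tested. The same library had the lowest summed chondrocyte markers of the controls, 454 FPKM against 11292 and 5908 FPKM, and its erythroid markers were the highest, 2291 FPKM against 880 and 1240 FPKM. Their part in the members' level was not tested.

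**Figure D1:**
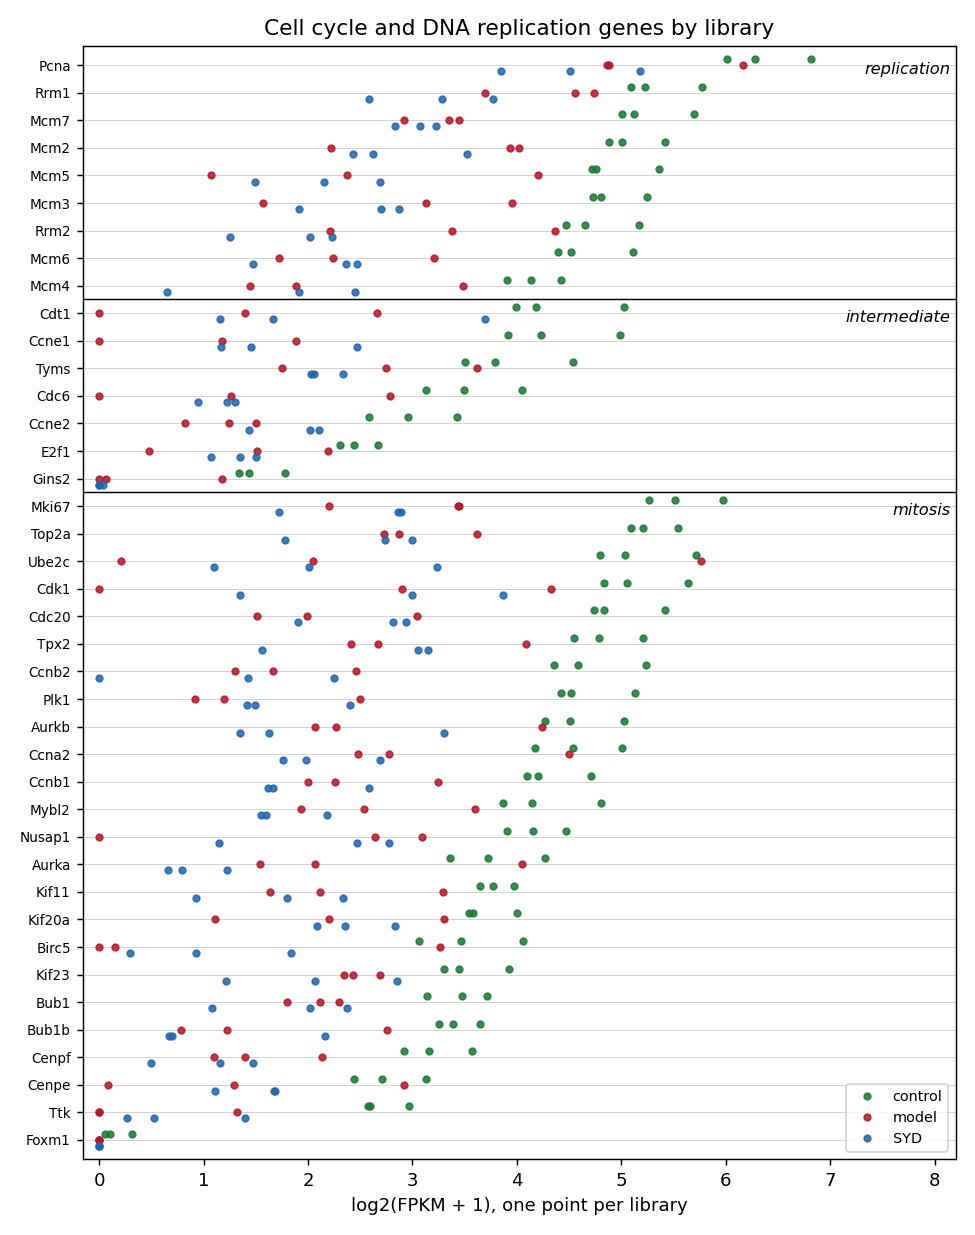
Level of each of the 40 members in each library, as log2(FPKM + 1) on the horizontal axis, with 1 point per library colored by group and genes ordered by control mean within the replication, intermediate, and mitosis sets. The 3 control points lie to the right of all SYD points in every row, while red model points reach the control range in some rows, such as Ube2c and Pcna.

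The comparison of model with control asks how these genes differed after the joint was destabilized. A gene was called when its log2 fold change on the log2(FPKM + 1) scale exceeded 1 in size and limma gave p under 0.05 before adjustment, which are the criteria of the study. Of the 39 members tested, 33 were called lower in the model group and 0 were called higher. Of all 13898 genes tested, 11.2% were called lower and 3.55% higher. That background depended on the scaling. On FPKM rescaled to a fixed total per library (TPM), 10407 of all genes and 39 members were called lower and 38 genes higher, with a median log2 fold change of -4.57 over the members and -2.60 over all genes. With quantile normalization, 1094 genes and 32 members were lower and 944 genes higher, with medians of -1.82 and 0.04. The fall covered all 9 replication genes, 5 of 7 intermediate genes, and 19 of 23 mitosis genes. Tyms, E2f1, Ccna2, Aurka, Cenpe, and Ube2c were not called. In 32 of 39 members every model library lay below every control library, against 20.0% of all genes, and in 0 members every model library lay above, against 8.65%. The median log2 fold change of the members was -1.83, against -0.23 over all genes tested.

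Of the mitosis genes called, Plk1, Ccnb2, and Cdc20 fell most. Ccnb2 (ENSRNOG00000063216), a cyclin of Cdk1, had 19.5, 36.8, and 23.0 FPKM in control and 2.16, 1.47, and 4.49 FPKM in the model libraries. The groups were far apart, and the log2 fold change was -2.92 ± 0.41 (SE, limma adjusted p = 0.0382). Plk1 (ENSRNOG00000018815), a kinase of mitotic entry and spindle formation, had 20.4, 34.0, and 21.98 FPKM in control and 4.64, 1.29, and 0.892 FPKM in model. Its log2 fold change was -3.15 ± 0.49 (SE, limma adjusted p = 0.0401). Cdc20 (ENSRNOG00000028415), which activates the anaphase-promoting complex, went from 27.6, 41.7, and 25.6 FPKM to 1.85, 2.96, and 7.25 FPKM. This was a log2 fold change of -2.81 ± 0.45 (SE, limma adjusted p = 0.0409).

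Mki67 (ENSRNOG00000028137) had 9.87, 3.61, and 9.80 FPKM in the model libraries, all below the lowest control, with a log2 fold change of -2.56 ± 0.42 (SE, limma adjusted p = 0.0414). Top2a (ENSRNOG00000053047) had 11.3, 5.64, and 6.31 FPKM there, a log2 fold change of -2.20 ± 0.31 (SE, limma adjusted p = 0.0382). Both separated fully from control. Cdk1 (ENSRNOG00000000632), the kinase that drives entry into mitosis, had 27.5, 48.7, and 32.3 FPKM in control, against 19.1, 6.47, and 0 FPKM in model. It was called, with a log2 fold change of -2.77 ± 1.06 (SE, limma adjusted p = 0.229), but the model libraries disagreed widely. Without control library 1, 2, or 3 or model library 2 the call was lost, with log2 fold changes of -2.94, -2.54, -2.83, and -3.01.

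Ube2c (ENSRNOG00000015131), the ubiquitin-conjugating enzyme of the anaphase-promoting complex, showed the widest disagreement. It had 26.9, 51.6, and 31.7 FPKM in control and 53.3, 3.15, and 0.153 FPKM in model. Model library 1 was the highest of all 9 libraries and model library 3 was the lowest. The log2 fold change was -2.51 ± 1.34 (SE, limma adjusted p = 0.374), and without model library 1 it was -4.05 (limma adjusted p = 0.0431). Aurka, a kinase of the centrosome, was likewise split, with 15.5, 1.91, and 3.19 FPKM in model against 9.25, 18.3, and 12.2 FPKM in control. Ccna2, a cyclin of S phase and mitotic entry, had 21.7 FPKM in model library 1 and 5.85 and 4.58 FPKM in the others, against 17.05 to 31.2 FPKM in control.

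Of the kinesin motors of the spindle, Kif23, which acts in the final separation of the cells, had 8.87, 14.1, and 9.87 FPKM in control and 4.09, 4.40, and 5.43 FPKM in model. Its model libraries were close together, and its log2 fold change of -1.07 (limma adjusted p = 0.120) was the smallest of the called mitosis genes. Kif11, which pushes the spindle poles apart, was split between the model libraries, with 8.81, 3.33, and 2.10 FPKM against 11.5, 14.7, and 12.6 FPKM in control (-1.45). Kif20a was split as well, with 1.16 to 8.84 FPKM against 10.7, 15.1, and 10.9 FPKM (-1.51). Of the spindle checkpoint kinases, Bub1 had 7.83, 12.1, and 10.1 FPKM in control and 2.48, 3.34, and 3.91 FPKM in model, a fall of every model library (-1.37), and Bub1b (-1.84) and Ttk (-2.27) were called lower as well. The centromere proteins differed in their call, since Cenpf (-1.67) was called and Cenpe was not, with 6.59, 1.44, and 0.0594 FPKM in model against 4.42, 7.74, and 5.53 FPKM in control. Ccnb1 (-1.83), Aurkb (-1.75), Tpx2, a spindle assembly factor (-1.79), and Mybl2, a transcription factor of dividing cells (-1.58), were also called lower.

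The replication genes were all called lower, but by different amounts. Mcm7 (ENSRNOG00000001349), a subunit of the helicase, had 31.1, 50.7, and 33.7 FPKM in control and 9.88, 6.57, and 9.23 FPKM in model. These model values were close together and far below control, with a log2 fold change of -2.03 ± 0.29 (SE, limma adjusted p = 0.0382). The other Mcm genes had log2 fold changes from -2.40 (Mcm5) to -1.71 (Mcm2), with adjusted p-values in limma from 0.0601 to 0.168. Pcna (ENSRNOG00000021264) had 70.8, 28.6, and 28.2 FPKM in model, so that model library 1 stood within the control range of 63.4 to 112 FPKM. Its log2 fold change of -1.06 ± 0.44 (SE, limma adjusted p = 0.259) was among the smallest of the replication set.

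Rrm1 (ENSRNOG00000045752), the large subunit of ribonucleotide reductase, had 33.2, 53.5, and 36.5 FPKM in control and 25.8, 11.9, and 22.5 FPKM in model. All model libraries lay below control, with a log2 fold change of -1.03 ± 0.36 (SE, limma adjusted p = 0.190). Its partner Rrm2, the small subunit, had 19.7, 3.62, and 9.41 FPKM against 21.1 to 35.0 FPKM. The calls of Pcna and Rrm1 lay close to the threshold and were lost in several fits with fewer libraries, in some of them at a larger fold change. Pcna was no longer called without any 1 of control libraries 1, 2, or 3 or model libraries 2 or 3, with log2 fold changes of -1.24, -0.84, -1.11, -0.85, and -0.84. Rrm1 was no longer called without control library 2 or 3 or model library 2, with -0.83, -1.10, and -0.72. With the replicate number as a block, Pcna (limma adjusted p = 0.451) and Rrm1 (limma adjusted p = 0.420) were not called either.

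Of the intermediate genes, Ccne1 (ENSRNOG00000014786), the cyclin that starts S phase with Cdk2, fell most. It had 14.1, 30.7, and 17.7 FPKM in control and 0, 1.26, and 2.69 FPKM in model, a log2 fold change of -3.36 ± 0.57 (SE, limma adjusted p = 0.0443). Cdt1 (ENSRNOG00000013970) went from 14.9, 31.6, and 17.2 FPKM to 0, 1.64, and 5.31 FPKM. It was called, with a log2 fold change of -3.05 ± 0.71 (SE, limma adjusted p = 0.0853). Tyms (ENSRNOG00000037225) had 12.8, 22.3, and 10.3 FPKM in control and 5.73, 2.36, and 11.3 FPKM in model. The groups overlapped, and the log2 fold change of -1.24 ± 0.55 (SE, limma adjusted p = 0.291) was not called. Without model library 3 it was -1.69 and was called. E2f1, the transcription factor of S phase genes, had 3.57, 0.395, and 1.86 FPKM in model against 3.94, 5.35, and 4.44 FPKM in control. Its groups did not overlap, but it was not called (limma adjusted p = 0.322).

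Benjamini-Hochberg adjustment over all genes left 7 of the 33 lower calls under 0.05 (Ccnb2, Top2a, Mcm7, Plk1, Cdc20, Mki67, and Ccne1), against 2.35% of all genes for falls and 0.237% for rises. By exact permutation tests of mean FPKM, 33 of 40 members, Foxm1 included, reached p = 0.1, the smallest that 3 libraries against 3 allow. These are the members whose groups did not overlap, so the test adds nothing to that count. The count of calls depended on single libraries. It was 15 without control library 2, 21 without control library 3, and 20 without model library 2, and it lay between 25 and 36 without any other library. Over all genes the 1553 lower calls became 1042 without control library 2 and 1033 without control library 3, but 2558 without model library 2. With model library 2, the one with the most reads outside the mitochondrial genes, as the only model library, 39 of 39 members were called lower. In that fit, 33 stayed under 0.05 after adjustment. Of all 13898 genes, 1841 were called lower and 1461 higher there, and 1931 were lower after adjustment. The model arm of that fit has 1 library, so its spread comes from the control libraries alone and the lone library is assumed to vary as they do. All 39 members had a negative log2 fold change in each of these fits.

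**Figure D2:**
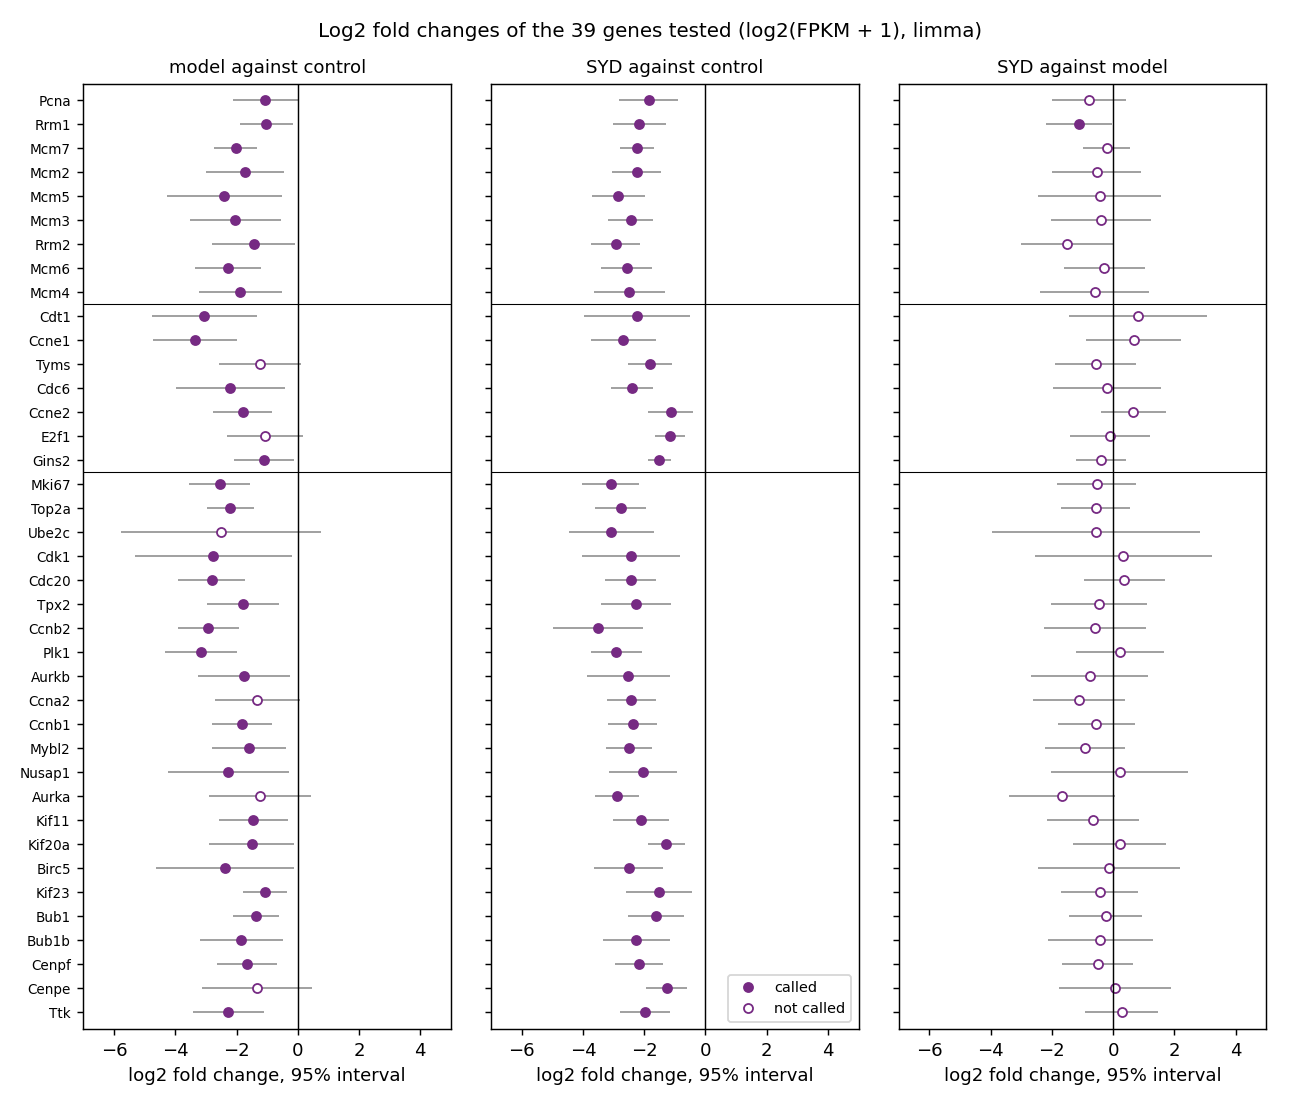
Log2 fold change of the 39 tested members (points) with 95% intervals (lines) from limma in the 3 comparisons, filled where called and open where not, in the same order of genes as the plot of levels. All points lie left of 0 in both comparisons with control, whereas 38 of 39 points are open in SYD against model.

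SYD against control compares the operated and treated joint with the joint whose capsule was only opened. It shares the control libraries with the comparison above. All 39 members tested were called lower, against 9.22% of all genes, and 0 were called higher, against 7.25%. All 39 also had every SYD library below every control library, against 22.2% of all genes, while 20.3% of all genes had the reverse order. The median log2 fold change of the members was -2.38, against 0.00 over all genes tested. On TPM, 5901 genes were lower and 128 higher, with medians of -4.01 over the members and -1.31 over all genes, and with quantile normalization 1364 genes were lower and 1173 higher. After adjustment, 35 of 39 remained under 0.05 in limma, against 9.57% of all genes lower and 7.75% higher on that rule. Cdt1 (adjusted p = 0.0801), Ccne2 (0.0519), Cdk1 (0.0538), and Kif23 (0.066) did not. By exact permutation tests, all 40 members, Foxm1 included, had the smallest p of 0.1. That p follows from groups that do not overlap, so it adds nothing to the count of such members above.

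Mcm7 had 7.39, 6.11, and 8.33 FPKM in the SYD libraries, the smallest SD (1.11 FPKM) of the replication genes, with a log2 fold change of -2.23 ± 0.22 (SE, limma adjusted p = 0.00791). Aurka (ENSRNOG00000004479) had 0.728, 1.34, and 0.581 FPKM there against 9.25, 18.3, and 12.2 FPKM in control. Its log2 fold change was -2.89 ± 0.29 (SE, limma adjusted p = 0.00802).

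Rrm2 (ENSRNOG00000054286) went from 21.1, 35.0, and 24.1 FPKM in control to 1.38, 3.05, and 3.68 FPKM in SYD, a log2 fold change of -2.93 ± 0.32 (SE, limma adjusted p = 0.00814). Cdc6 (ENSRNOG00000027787) had 7.76, 15.6, and 10.3 FPKM in control and 0.930, 1.33, and 1.46 FPKM in SYD, which gave -2.40 ± 0.27 (SE, limma adjusted p = 0.00891). Plk1 had 1.82, 4.29, and 1.66 FPKM in SYD, which gave -2.92 ± 0.34 (SE, limma adjusted p = 0.00917). None of these overlapped with control. Gins2 (ENSRNOG00000017575), a subunit of the active helicase, had 1.53, 2.42, and 1.71 FPKM in control and 0, 0.0252, and 0 FPKM in SYD (log2 fold change -1.51). Its mean over the model and SYD libraries was 0.221 FPKM, so it passed the filter on low values through control alone and had to differ.

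Of the most abundant members, Mki67 had 2.29, 6.25, and 6.40 FPKM in SYD, with a log2 fold change against control of -3.10 ± 0.37 (SE, limma adjusted p = 0.00992). Pcna had 13.4, 21.7, and 35.3 FPKM, with -1.86 ± 0.39 (SE, limma adjusted p = 0.0298), and Rrm1 had 4.98, 8.72, and 12.6 FPKM, with -2.15 ± 0.35 (SE, limma adjusted p = 0.0166). SYD library 1 was the lowest of its group in 28 of the 40 members, these included. Ube2c had 3.02, 8.39, and 1.14 FPKM, with -3.07 ± 0.57 (SE, limma adjusted p = 0.022). Cdk1 ranged from 1.56 to 13.6 FPKM, with -2.44 ± 0.65 (SE, limma adjusted p = 0.0538).

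Among the intermediate genes, Ccne1 had 1.73, 1.24, and 4.53 FPKM in SYD, with -2.68 ± 0.43 (SE, limma adjusted p = 0.0169). Tyms had 3.15, 4.05, and 3.09 FPKM, with -1.80 ± 0.29 (SE, limma adjusted p = 0.0169). Cdt1 had 1.23, 2.17, and 11.9 FPKM, with -2.23 ± 0.70 (SE, limma adjusted p = 0.0801). Its call was lost without control library 2 or SYD library 1 or 2, with log2 fold changes of -1.92, -1.72, and -1.98. The count of calls held between 36 and 39 when any 1 library was left out. The count under an adjusted p of 0.05 fell from 35 to 3 without control library 3, to 16 without control library 2, and to 19 without control library 1. Over all genes, the 1330 lower on that rule fell to 154, 393, and 501 in the same fits.

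SYD against model asks whether the levels differed between treated and untreated operated joints. It shares libraries with both comparisons above. Of the 39 members tested, 1 was called lower (Rrm1) and 0 were called higher, against 0.532% and 3.62% of all genes. Over all genes these were 74 lower and 503 higher, and they became 10 and 519 on TPM and 211 and 329 with quantile normalization. After adjustment in limma, 0 members stayed under 0.05, and the lowest adjusted p was 0.723. Before adjustment, 1 member had p under 0.05, and voom on recovered reads also called 1. Log2 fold changes were negative for 29 of 39 members with a median of -0.44, against 0.22 over all genes tested, but on TPM they were negative for 3 of 39 with a median of 0.79, against 1.22 over all genes. Aurka was the single member whose SYD libraries all lay below all model libraries, against 3.17% of all genes, and 0 members had them all above, against 7.89%.

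Rrm1 had 25.8, 11.9, and 22.5 FPKM in model and 4.98, 8.72, and 12.6 FPKM in SYD. The highest SYD library exceeded the lowest model library, and the log2 fold change was -1.12 ± 0.44 (SE, limma adjusted p = 0.723), with a 95% interval from -2.19 to -0.05. The call was lost without any 1 library other than model library 2 or SYD library 3, with log2 fold changes of -0.91 and -1.01 without model library 1 or 3, and -0.80 and -1.15 without SYD library 1 or 2. Rrm2 and Aurka missed the call, with -1.49 (interval -3.01 to 0.03) and -1.66 (interval -3.40 to 0.08). On TPM the log2 fold change of Rrm1 was 0.39.

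For the other abundant members the intervals included 0. The log2 fold change of Mki67 was -0.54 (95% interval -1.83 to 0.76), that of Pcna was -0.79 (-2.001 to 0.41), and that of Mcm7 was -0.20 (-0.97 to 0.57). Mcm7 thus had the narrowest interval of these, whereas that of Ube2c (-3.96 to 2.84) and that of Cdk1 (-2.56 to 3.22) allowed large differences in either direction. Tyms had -0.56 (-1.88 to 0.75). Cdt1 and Ccne1 had positive values, 0.82 (-1.44 to 3.07) and 0.67 (-0.87 to 2.22). The intervals do not show that the model and SYD groups had equal levels of these genes.

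Replication and mitosis genes were then set side by side. The median log2 fold change of model against control was -1.88 for the 9 replication genes and -1.83 for the 23 mitosis genes tested, a difference of -0.05. For SYD against control the medians were -2.43 and -2.43, a difference of -0.01, and for SYD against model they were -0.54 and -0.47, a difference of -0.07. These differences were smaller than the SD, pooled within the groups compared, of the difference between the sets' median levels in a library (0.34, 0.14, and 0.36 on the log2 scale). The difference for model against control ranged from -0.48 without model library 3 to 0.21 without model library 2, and that for SYD against control was 0.36 with voom on recovered reads.

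Sums of FPKM over each set, in which abundant genes weigh most, differed from control by a smaller fold for replication than for mitosis genes, a contrast that was not tested. The replication genes summed to 262, 424, and 294 FPKM in control, 192, 62.4, and 101 FPKM in model, and 40.6, 63.1, and 86.5 FPKM in SYD. The group means were 327 ± 85.7, 118 ± 66.4, and 63.4 ± 22.9 FPKM (SD, n = 3 libraries each), 2.76-fold lower in model and 5.15-fold lower in SYD than in control. The mitosis genes summed to 374, 619, and 430 FPKM in control, 241, 74.4, and 73.6 FPKM in model, and 35.3, 100.5, and 88.6 FPKM in SYD. Their means were 474 ± 128, 130 ± 96.6, and 74.8 ± 34.7 FPKM (SD, n = 3 libraries each), 3.65-fold and 6.34-fold lower. Neither set overlapped between control and the operated groups. The intermediate genes summed to 82.0 FPKM on average in control, 16.2 FPKM in model, and 16.5 FPKM in SYD.

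The ratio of the replication sum to the mitosis sum was 0.702, 0.685, and 0.682 in the control libraries, which hardly differed. It was 0.794, 0.839, and 1.37 in the model libraries, all above control. In SYD it was 1.15, 0.628, and 0.9754, on either side of control. Without Pcna the ratio was 0.514 ± 0.0164 in control, 0.648 ± 0.295 in model, and 0.587 ± 0.181 in SYD (SD, n = 3 libraries each), and model library 1, at 0.501, and model library 2, at 0.455, lay below the lowest control, 0.504.

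**Figure D3:**
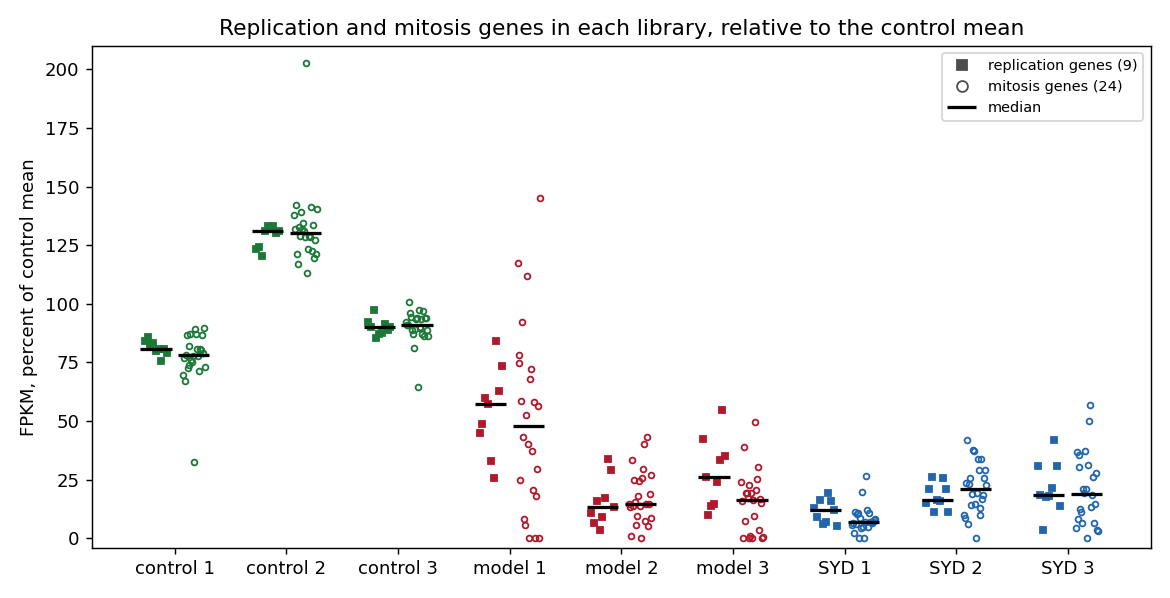
FPKM of each replication gene (squares) and mitosis gene (open circles) in each of the 9 libraries, as percent of that gene's control mean, with bars at the median of each set. Medians of the replication and mitosis genes were 57.2% and 48.0% in model library 1, 13.5% and 14.8% in model library 2, and 12.1% and 6.99% in SYD library 1.

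The SD over members of the log2 ratio to the control mean, on log2(FPKM + 1), was 0.09 to 0.11 in control, whose libraries are themselves part of that mean. In the operated libraries, where it also holds the differences between genes in fold change and so cannot be set against control, it was 1.30, 0.82, and 1.08 in model and 0.82, 0.67, and 0.85 in SYD, and the 2 libraries with the fewest member reads, model libraries 1 and 3, had the largest values. Model library 1 was the highest of its group in 27 of 40 members, and 6 of its members stood at or above the lowest control. At the same time it had the most members listed at 0.

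The members at 0 in model library 1 were Cdt1, Ccne1, Cdc6, Gins2, Nusap1, Ttk, and Foxm1. For Cdt1, Nusap1, which bundles spindle microtubules, and Ccne1, the control mean would have given 173, 163, and 148 reads there. Cdk1, Birc5, an inhibitor of apoptosis that works with Aurkb on the spindle, Ttk, and Foxm1 were at 0 in model library 3, where the control mean of Cdk1 would have given 326 reads. Ccnb2 was at 0 in SYD library 1, where its control mean would have given 1339 reads. Other genes of the operated libraries were at 0 as well. Of the 5734 genes with a control mean of at least 5 FPKM, 11.04% were at 0 in model library 1, 2.51% in model library 2, and 7.87% in model library 3, against 5, 0, and 3 of the 37 members at that level. In SYD libraries 1, 2, and 3 the shares were 0.767%, 0.558%, and 2.01%, against 1, 0, and 0 of the 37 members.

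Other genes of the same pathways, from lists written by hand, were mostly lower than in control too. Of all genes, 11.2% were called lower in model against control and 9.22% in SYD against control. Of 28 entries for other replication genes, 20 were called lower and 0 higher in model against control, with a median log2 fold change of -1.79. In SYD against control 24 were lower and 1 was higher, with a median of -1.74. Dut, which removes dUTP, had 47.3, 91.2, and 58.6 FPKM in control, 21.7, 10.4, and 25.9 FPKM in model, and 13.6, 14.6, and 25.4 FPKM in SYD. It was called lower in both comparisons with control. Tk1, the thymidine kinase of S phase, was also lower in both (log2 fold changes -1.83 and -2.14), whereas Rfc4, a subunit of the clamp loader for Pcna, was called in SYD against control (-1.57) and not in model against control (-0.78). The single higher entry was 1 of 2 entries named Cdc45, a partner of the helicase. ENSRNOG00000050071 had 1.64 to 2.40 FPKM in control and 7.02 to 14.8 FPKM in SYD, while ENSRNOG00000070046 had 6.32 to 11.2 and 0.390 to 2.74 FPKM. Reads could be split between such entries, so both are uncertain.

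In SYD against model, 2 of the 28 entries for other replication genes were called higher and 0 lower, against 3.62% and 0.532% of all genes. Cdc7, the kinase that fires origins, was 1 of the 2 (log2 fold change 1.21, limma adjusted p = 0.723). It had 0, 0.390, and 0 FPKM in model and 0.740, 1.34, and 3.19 FPKM in SYD, against 3.32 to 4.67 FPKM in control, and it was named after its values were seen. Of 31 other mitosis genes tested, 22 were called lower in model against control and 28 in SYD against control, against 11.2% and 9.22% of all genes. The medians were -1.68 and -1.81, and 0 were called higher. The most abundant were Pttg1 (securin), Cdca8, a partner of Aurkb, and Spc24 of the kinetochore. Pttg1 and Spc24 were called lower in SYD against control (-1.45 and -1.996), and Cdca8 was not (-1.46, limma adjusted p = 0.158). None of the 3 was called in model against control. In SYD against model 1 of the 31 was called, against 0.532% of all genes called lower. It was Smc2, a condensin subunit that was lower (-1.23).

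The 23 genes that control the step before S phase behaved less evenly. In model against control, 5 were called lower (Btg2, Cdkn2d, Cdkn2c, Rbl1, and Cdk6) and 0 higher, against 11.2% and 3.55% of all genes. The median was -0.75, against -0.23 over all genes. The list holds both cyclins with their kinases and proteins that hold them back, and 4 of the 5 that fell (Btg2, Cdkn2d, Cdkn2c, and Rbl1) are of the second kind. Cdkn2c, an inhibitor of Cdk4 and Cdk6, had 24.4, 40.2, and 28.1 FPKM in control and 9.22, 8.40, and 6.41 FPKM in model, a log2 fold change of -1.81 (adjusted p = 0.0404). It had 5.65, 6.30, and 14.9 FPKM in SYD, -1.77 against control (adjusted p = 0.0332). In SYD against control 9 were lower and 2 were higher, against 9.22% and 7.25% of all genes, with a median of -0.75. The share of higher genes in this list was near the 7.25% of all genes.

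The genes that were higher were cyclin D1 (Ccnd1) and the Cdk inhibitor p21 (Cdkn1a). Ccnd1 had 5.12, 1.97, and 3.53 FPKM in control, 8.97, 19.3, and 2.72 FPKM in model, and 10.8, 13.1, and 12.7 FPKM in SYD. Its log2 fold change in SYD against control was 1.60 (adjusted p = 0.02), and that in model against control, 1.06, was not called (limma adjusted p = 0.445). Cdkn1a had 7.98, 1.796, and 5.26 FPKM in control, 1.63, 8.34, and 2.04 FPKM in model, and 17.6, 11.4, and 11.3 FPKM in SYD. Every SYD library was above all others, with log2 fold changes of 1.39 against control (limma adjusted p = 0.0897) and 1.75 against model (limma adjusted p = 0.723). It was the only 1 of the 23 genes called in SYD against model, a share near the 3.62% of all genes called higher.

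The genes lower in SYD against control included Ccnd3, the most abundant cyclin of the list, which had 80.4, 134, and 90.9 FPKM in control and 17.3, 22.9, and 29.8 FPKM in SYD (-2.08, adjusted p = 0.0113). In model it had 81.6, 10.8, and 42.9 FPKM and was not called. The others were Btg2 (-1.25), Cdkn2d (-1.56), Cdkn2c, Ccng2 (-1.38), Rb1 (-1.02), Cdk2 (-1.14), Rbl1 (-1.98), and Cdk6 (-1.24). Model against control gave log2 fold changes of -1.74 for Btg2, -1.65 for Cdkn2d, -1.88 for Rbl1, and -2.03 for Cdk6. The remaining abundant genes of the list, Btg1 and Cdkn1b, were not called in any comparison. Btg1 ranged from 59.5 to 131 FPKM over the 9 libraries, with both of these extremes in model.

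Markers of marrow cells moved with the members. The 7 neutrophil precursor markers summed to 426 to 734 FPKM in control, 6.06 to 115 FPKM in model, and 19.4 to 46.8 FPKM in SYD, 9.64-fold and 16.0-fold lower on average. Of the 7, 6 were called lower in model against control and 7 in SYD against control, against 11.2% and 9.22% of all genes. Mpo, the peroxidase of their granules, had 163 to 257 FPKM in control, 0.621 to 52.5 FPKM in model, and 6.24 to 20.3 FPKM in SYD. The 10 B lineage markers summed to 310 to 392 FPKM in control, 27.7 to 70.0 FPKM in model, and 21.8 to 57.4 FPKM in SYD, and 8 of 10 were called lower in each comparison with control. Both lists separated control from the operated groups, as the member sums did. Their part in the members' fall was not tested, and in bulk tissue fewer cells of a dividing type and less of these RNAs per cell cannot be told apart.

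Other marrow and joint lists were less uniform. The 10 erythroid markers summed to 880 to 2291 FPKM in control, 12.9 to 2121 FPKM in model, and 79.1 to 780 FPKM in SYD, and the 8 mature neutrophil markers to 2677 to 5455, 76.5 to 7926, and 546 to 3425 FPKM. In SYD against control, 8 of 10 erythroid and 5 of 7 mature neutrophil markers tested were called lower and 0 higher, as were 3 of each in model against control. Of all genes, 9.22% and 11.2% were called lower in these 2 comparisons. All SYD libraries lay below all controls in the erythroid sum, 4.62-fold lower on average. In both lists, model library 1 was above all controls or within their range, and model library 2 was the lowest of all libraries. In model libraries 1, 2, and 3 the mitosis members summed to 241, 74.4, and 73.6 FPKM. The erythroid markers summed to 2121, 12.9, and 1947 FPKM there, and the mature neutrophil markers to 7926, 76.5, and 1975 FPKM. Model library 3 had its erythroid sum within the control range but the lowest mitosis sum of the model group. The 12 chondrocyte markers summed to 454 to 11292 FPKM in control, 163 to 924 FPKM in model, and 104 to 1317 FPKM in SYD. Of these, 7 were called lower in model against control and 2 in SYD against control. Osteoclast and endothelial markers were higher in SYD than in control, with 5 of 6 and 4 of 6 called, against 7.25% of all genes. These 2 lists moved opposite to the members. Their part was likewise not tested.

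**Figure D4:**
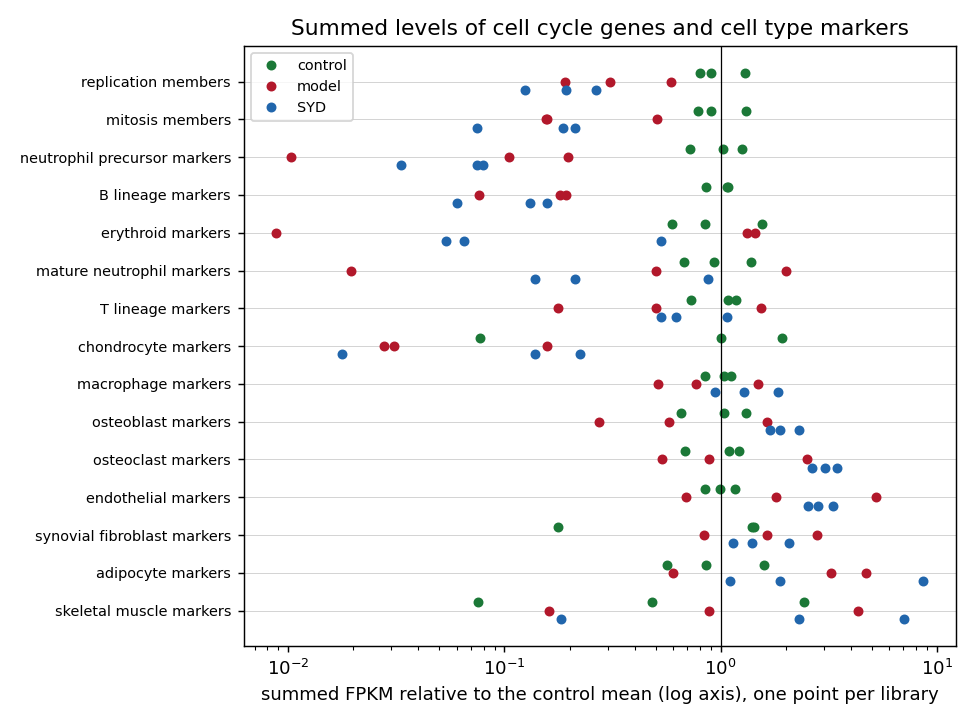
Summed FPKM of the replication and mitosis members and of 13 lists of cell type markers, relative to the control mean on a log axis, with 1 point per library colored by group. The neutrophil precursor and B lineage sums lie below all controls in all 6 operated libraries, as the replication and mitosis sums do, while the erythroid sums of model libraries 1 and 3 reach the controls and the osteoclast and endothelial sums of the SYD libraries exceed them.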

How the data were processed

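Messenger RNA was sequenced in 9 rat knee cartilage libraries, grouped by the sample labels. The authors deposited FPKM per gene with rat Ensembl identifiers, lengths, and positions. The submitters' processing notes list HISAT2 2.0.5 and hg38, a human build, although the samples are rat, and the counting tool, the annotation, and the build of the positions are not given in the sources used here. Whole reads were recovered from the deposited FPKM (100% of values above 0 within 0.1 read). The library size the authors scaled by was 0.193 to 2.18 times the recovered reads. A floor of 3 reads covers counting error only.

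Tests used limma 3.58.1 in R 4.3.3, with a trend and two-sided, on log2(FPKM + 1), which understates the change of low genes. They covered the 13898 genes with a mean of at least 0.5 FPKM over the 9 libraries, and each used the 6 libraries of its groups. Benjamini-Hochberg adjustment was over all genes tested. The fit was tested on simulated data. Exact permutation tests were two-sided. The members, the lists, and the tests were chosen with earlier results of these data known. Full statistics were given for the 3 highest genes of each set and up to 6 members with the lowest adjusted p-value under 0.05. Of the other pathway lists, the 3 highest genes were named, and of the list of the step before S phase also those called. Cks2, Nek2, and the muscle marker Mylpf were not analysed here, and some results of single list genes are not reported here.

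Alternatives were a pseudocount of 0.1, no filter, a mean of at least 1 FPKM, TPM, rescaling to values outside the mitochondrial genes, quantile normalization, all 9 libraries in 1 fit, the replicate number as a block, voom on the recovered reads, a wider replication set with the intermediate genes, and leaving out each library. Model library 2 as the only model library was added after seeing the data. Promoter windows came from RefSeq (GRCr8).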

Additional observations from a re-analysis of the deposited data

How the results depend on the processing

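Direction against control was kept by every tested member under each alternative run. The count of 33 members called in model against control was 7 after adjustment in limma, and 15 to 36 when 1 library was left out. The adjusted count fell to 0 without any 1 control library or without model library 3, where 25, 15, 21, and 27 members were under 0.05 before adjustment and 0, 0, 0, and 1 of all 13898 genes stayed under it after. For SYD against control the count stayed between 36 and 39, and the adjusted count of 35 became 14 with all 9 libraries in 1 fit and 3, 16, and 19 without control libraries 3, 2, and 1. In model against control the adjusted count of 7 became 39 on TPM, 17 with voom, 11 with all 9 libraries in 1 fit, 3 with a mean of at least 1 FPKM, and 19 and 12 without model libraries 1 and 2. In SYD against model the single call became 0 with no filter, with TPM, with rescaling to values outside the mitochondrial genes, with model library 2 as the only model library (an alternative added after seeing the data, with the spread taken from the other group), and at an adjusted p-value under 0.05, 3 with quantile normalization and with all 9 libraries in 1 fit, and 0 to 4 when 1 library was left out.

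The replicate numbers did not pair the libraries, with correlations of same-numbered deviations from -0.267 to 0.194. With the replicate number as a block, 28, 0, and 39 members were called in model against control, SYD against model, and SYD against control, and 0 members and 0 of all 13898 genes stayed under 0.05 after adjustment in limma (28, 0, and 39 members before it).

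The difference of medians between replication and mitosis genes ranged from -0.48 to 0.21 in model against control and from -0.39 to 0.13 in SYD against model when 1 library was left out. It was 0.44 with voom in SYD against model. In SYD against control it was 0.22 with a pseudocount of 0.1, 0.36 with voom, and 0.19 with a wider replication set. The cause was not tested.

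Of the values of named members, 16 in SYD against model reversed, none of them called. On TPM the log2 fold changes were 0.80 for Tyms, 0.84 for Mki67, 0.67 for Ube2c, 0.79 for Pcna, 0.39 for Rrm1, and 1.21 for Mcm7, where TPM moved the median of all genes from 0.22 to 1.22. With model library 2 alone they were 0.39 for Tyms, 0.28 for Mki67, 0.061 for Ube2c, -0.16 for Cdk1, and 0.12 for Mcm7. With voom they were 0.070 for Tyms and 0.29 for Ube2c. Leaving out 1 library moved Ube2c from -1.79 (model library 3) to 0.98 (model library 1) and Cdk1 from -0.87 (model library 3) to 1.29 (model library 1), with -0.23 for Cdk1 without SYD library 2. Depth limits model libraries 1 and 3 most, with 4583 and 4494 reads on all members.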
